A study of Mus musculus with 12 samples.

Results

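The genes described here serve folate uptake and retention. They are Folr1 and Folr2, which encode folate receptors, Slc19a1 and Slc46a1, which encode folate carriers, and Fpgs and Ggh, which encode the enzymes that add and remove the polyglutamate tail of folate. The 6 genes were chosen by name for these roles and not by their values, out of 55487 genes listed per library. Earlier results of these data were known when they were chosen. All 6 were found by symbol and all 6 passed the filter on low counts that left 18647 genes for testing. They were measured by RNA sequencing in whole right thoracic mammary fat pads of female C57BL/6 mice, an inbred strain with no engineered allele named in the labels, at postnatal day 84. Intake was 5 mg/kg folic acid in 6 of the 12 libraries and 1 mg/kg in the other 6. All pads were collected 4 weeks after the supplementation, which fell in juvenile and peri-pubertal life. Both groups were supplemented, no library without folic acid was analysed here, and whether mg/kg refers to diet or to body weight is not given in the sources used here.

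Folate is a vitamin that carries single-carbon units for the synthesis of thymidylate, purines and methionine. Mammalian cells cannot make it and take it up by the reduced folate carrier SLC19A1, by the proton-coupled carrier SLC46A1, or by endocytosis of folate bound to a receptor anchored in the membrane. FOLR1 is the receptor of many epithelia, FOLR2 is found on macrophages of several tissues, and SLC46A1 is also the carrier that takes up folate in the intestine. Inside the cell, folylpolyglutamate synthase (FPGS) adds glutamates that hold folate in the cell, and gamma-glutamyl hydrolase (GGH), an enzyme of lysosomes, removes them. The comparisons ask how high each gene stood at each intake, how much it varied from pad to pad, and whether that variation followed the lymphoid or macrophage content of the pad.

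By the GENCODE vM21 annotation of GRCm38 (mm10), all 6 are protein-coding genes. Folr1 (ENSMUSG00000001827) lies at chr7:101858331-101870788 and Folr2 (ENSMUSG00000032725) next to it at chr7:101839988-101857194, both on the minus strand. Slc19a1 (ENSMUSG00000001436) lies at chr10:77032241-77061002 and Slc46a1 (ENSMUSG00000020829) at chr11:78465697-78472059, both on the plus strand. Fpgs (ENSMUSG00000009566) lies at chr2:32682609-32704145 on the minus strand and Ggh (ENSMUSG00000073987) at chr4:20042052-20066750 on the plus strand. Of the 1546 exon bases of Folr2, 975 (63.1%) are shared with Gm10602, an antisense gene with 810 reads over all libraries. The library kit does not mark strand, so reads from the shared bases cannot be assigned to either gene with certainty, and the Folr2 level per kilobase is uncertain.

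Promoter windows from RefSeq on GRCm38.p6, running from 250 bases before to 50 bases after a transcript start, were found for 4 of the 6 genes. The windows of Folr2, compared here with macrophage genes, of Slc46a1, which varied with lymphoid and adipocyte genes, and of Fpgs, which varied least with TMM scaling, are printed 5′ to 3′ on the strand of the gene. They cover chr7:101857141-101857440 on the minus strand, chr11:78465451-78465750 on the plus strand and chr2:32694126-32694425 on the minus strand. Capitals mark matches to AGGAAGT, the core of ETS factors such as PU.1, and to an ETS-IRF composite (GGAA, any 2 bases, GAAA) in Folr2. In the other two they mark matches to GGGCGG, the GC box (its complement CCGCCC where the match is on the opposite strand).
Folr2: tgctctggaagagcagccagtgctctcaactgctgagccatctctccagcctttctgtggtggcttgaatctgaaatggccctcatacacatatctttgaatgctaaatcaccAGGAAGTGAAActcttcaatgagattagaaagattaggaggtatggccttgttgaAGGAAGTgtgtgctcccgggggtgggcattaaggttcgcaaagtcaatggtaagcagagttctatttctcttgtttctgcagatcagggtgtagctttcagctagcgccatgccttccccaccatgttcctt
Slc46a1: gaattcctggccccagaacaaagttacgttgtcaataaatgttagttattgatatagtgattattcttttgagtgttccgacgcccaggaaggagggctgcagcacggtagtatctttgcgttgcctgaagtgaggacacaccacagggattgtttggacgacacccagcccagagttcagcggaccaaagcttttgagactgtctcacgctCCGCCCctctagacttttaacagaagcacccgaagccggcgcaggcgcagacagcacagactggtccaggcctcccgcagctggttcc
Fpgs: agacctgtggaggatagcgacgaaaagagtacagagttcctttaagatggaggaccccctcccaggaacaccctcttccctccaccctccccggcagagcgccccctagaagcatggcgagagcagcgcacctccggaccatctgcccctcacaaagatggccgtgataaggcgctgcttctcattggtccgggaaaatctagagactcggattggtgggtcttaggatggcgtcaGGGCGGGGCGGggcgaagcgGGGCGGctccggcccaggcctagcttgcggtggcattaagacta
Both strands were searched, and these motifs were chosen with the Folr2 window in view. AGGAAGT began at -137 and at -82 from the Folr2 start, and the composite at -136, overlapping the first AGGAAGT match. Among all 32817 windows of the same length, 9.35% held AGGAAGT and 2.72% held the composite. A GC box, which 35.6% of all windows held, began at -38 in Slc46a1 and at -14, -9 and 6 in Fpgs. The base composition also differed, from 47.7% G and C in Folr2 to 53% in Slc46a1 and 61.3% in Fpgs, against a median of 52.7% over all windows. A second Folr2 window, at chr7:101845282-101845581, held none of these motifs nor the E-box CACGTG. A match is a description of the letters and not a bound site.

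Depth was 48.2 to 75.3 M reads in genes (M, mega), of which 39.2% to 59.5% fell in the 2 mitochondrial ribosomal RNA genes. All 14 luminal epithelium markers were above 0 in every library, so each pad held epithelial transcripts. Krt19 was at 28.7 to 195 CPM (reads scaled to a common library size with TMM factors). Other tissues stood out more. The 10 skeletal muscle markers summed to 16140 to 49186 CPM at 5 mg/kg and 17069 to 78603 CPM at 1 mg/kg. The brown fat gene Ucp1 ranged from 0.902 to 869 CPM. At a lower level, the 7 epidermis markers summed to 2.90 to 111 CPM at 5 mg/kg and 2.18 to 4.15 CPM at 1 mg/kg. The 33 B cell and T cell markers gave a lymphoid level, the mean of their log2 CPM, at or above 2.94 in 7 libraries and at or below -0.26 in 5, with 3 of the 5 at 5 mg/kg. No lymphoid, macrophage or adipocyte marker was at 0 in any library. Levels were compared between intakes by exact two-sided permutation for lymphoid, macrophage (general, tissue-resident and lymph node), luminal, adipocyte, muscle and proliferation genes. None of these differed, and adipocyte came nearest (7.71 ± 0.337 at 5 mg/kg and 7.18 ± 0.657 at 1 mg/kg, exact permutation p = 0.104). The brown fat, basal epithelium, fibroblast, endothelium and epidermis levels were not compared in this way.

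Compared per kilobase of exon, Folr2 stood highest and Folr1 lowest in each of the 12 libraries. Folr2 averaged 12.9 ± 4.36 CPM per kilobase (SD, n = 12) and exceeded Ggh, at 6.61 ± 1.47, in 12 of 12 libraries, although their ranges over libraries overlapped. Ggh in turn exceeded every other carrier or enzyme gene here without overlap. Slc46a1 at 1.25 ± 0.430 and Slc19a1 at 1.22 ± 0.291 CPM per kilobase did not separate, since Slc46a1 was the higher in 5 of 12 libraries. Slc19a1 exceeded Fpgs, at 0.944 ± 0.128, in 11 of 12 libraries, with overlapping ranges. Folr1 was at 0.203 ± 0.122 CPM per kilobase, below Fpgs in 12 of 12 libraries without overlap. If the exon bases shared with Gm10602 gave Folr2 no reads, its level over the remaining bases would be 34.9 ± 11.8 CPM per kilobase.

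Folr1, the epithelial receptor, rested on few reads, 13 to 54 per library at 5 mg/kg and 9 to 63 at 1 mg/kg. Its level was 0.207, 0.393 and 0.853 CPM (lowest, median, highest) at 5 mg/kg and 0.125, 0.417 and 1.06 CPM at 1 mg/kg. Libraries 2 and 4 at 1 mg/kg and library 2 at 5 mg/kg stood above the other 9, and the intakes overlapped throughout. The spread was wide, with coefficients of variation of 52.9% and 67.6% at 5 and 1 mg/kg. The within-group SD of log2 CPM, 0.83, was at percentile 86.1 of all tested genes.

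Folr2, the macrophage receptor, was at 16.7, 23.0 and 26.8 CPM (lowest, median, highest) at 5 mg/kg. At 1 mg/kg it was at 7.32, 16.4 and 31.9 CPM. The 1 mg/kg group held both the highest library (library 3) and the lowest (library 6), and the 6 libraries at 5 mg/kg all lay between them. The coefficient of variation was 19.3% at 5 mg/kg and 46.6% at 1 mg/kg, a difference in spread that was not tested.

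Slc19a1, the reduced folate carrier, was at 4.93, 6.07 and 7.42 CPM at 5 mg/kg and at 3.98, 4.52 and 7.95 CPM at 1 mg/kg. The highest library of all was library 4 at 1 mg/kg, and 4 of the 6 libraries at that intake lay below every library at 5 mg/kg. Slc46a1, the proton-coupled carrier, was at 3.20, 4.06 and 6.12 CPM at 5 mg/kg and at 1.69, 2.85 and 5.77 CPM at 1 mg/kg. Libraries 2 and 4 at 1 mg/kg reached into the upper part of the 5 mg/kg range, and the other 4 lay below all 6 libraries at 5 mg/kg.

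Fpgs, the enzyme that lengthens the tail, was at 2.99, 3.92 and 4.12 CPM at 5 mg/kg and at 2.51, 3.36 and 3.84 CPM at 1 mg/kg. With TMM scaling it varied least of the 6, with coefficients of variation of 11.1% and 14.3% and an SD of log2 CPM of 0.20, at percentile 14.99 of all tested genes. With library size alone those coefficients were 33.0% and 29.3%, above those of Ggh at 18.3% and 23.8%. Ggh, the hydrolase that shortens the tail, was at 11.8, 13.3 and 17.6 CPM at 5 mg/kg and at 7.61, 11.6 and 15.9 CPM at 1 mg/kg. Libraries 4 and 5 at 5 mg/kg were its highest and library 6 at 1 mg/kg its lowest. Between the extremes stood Folr2, Slc46a1, Slc19a1 and Ggh, at percentiles 62.9, 61.1, 35.6 and 34.1 for the same SD.

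**Figure D1:**
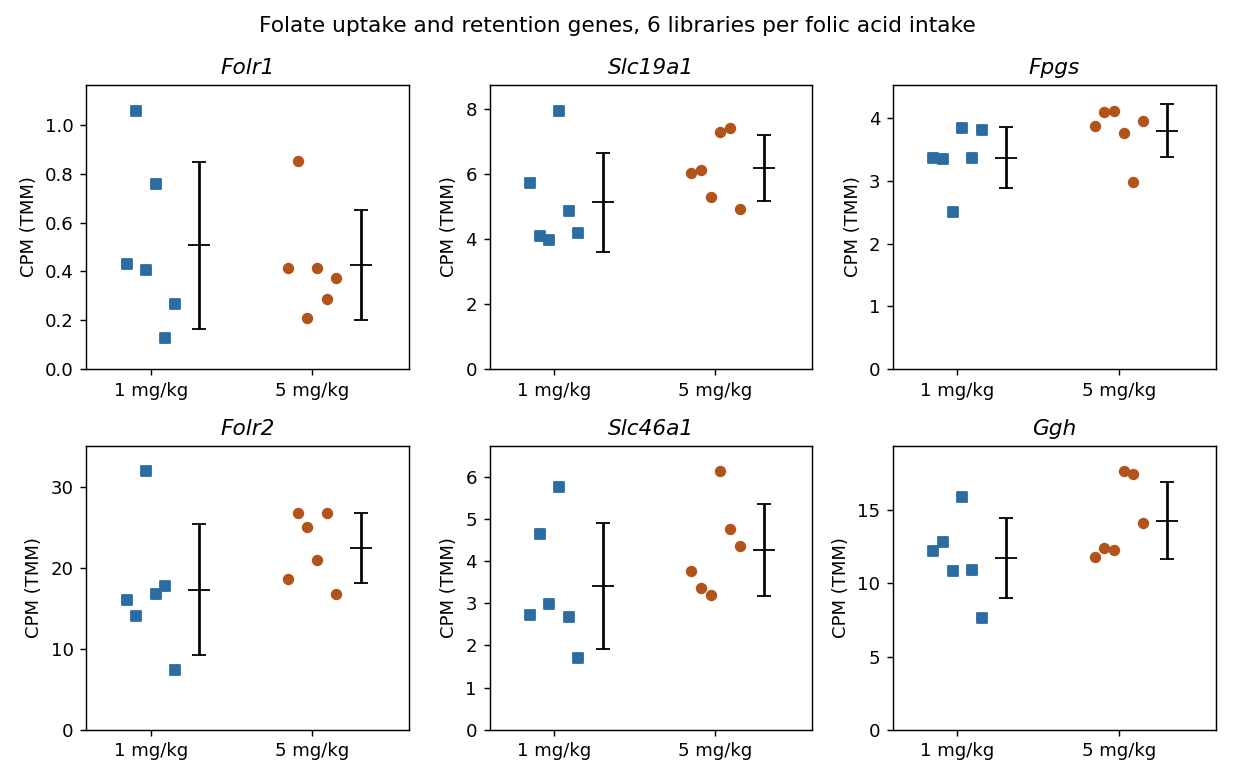
Each panel plots CPM (vertical axis, linear, from 0) of a folate gene in the 6 libraries at 1 mg/kg (squares) and the 6 at 5 mg/kg (circles), with the mean and SD of each group beside the points. The intakes overlap in all 6 panels, Folr2 reaches both 7.32 and 31.9 CPM at 1 mg/kg, and Fpgs stays between 2.51 and 4.12 CPM.

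None of the 6 genes differed detectably between intakes, and none had groups without overlap, as 8 of 18647 genes did (0.0429%). In the edgeR fit 0 of 6 were called at an adjusted p under 0.05, and 0 of 18647 genes in all (0%), with 359 genes at an unadjusted p under 0.05. On the same genes limma-voom called 0 with 361 at an unadjusted p under 0.05. DESeq2, which gave a p to 48171 genes, called 0 with 776. The 5 mg/kg mean was the higher for 5 genes and the lower for Folr1, and the median log2 fold change of the 6 was 0.28, against -0.018 over all genes tested. The libraries are not stated to be separate animals, so each p measures only the spread between these samples.

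Ggh, with the smallest p of the 6, averaged 14.3 ± 2.65 CPM at 5 mg/kg against 11.7 ± 2.73 CPM at the lower intake, and its log2 fold change was 0.29 ± 0.17 (SE, edgeR adjusted p = 0.943). Slc46a1 averaged 4.26 ± 1.09 and 3.41 ± 1.499 CPM, a log2 fold change of 0.32 ± 0.28. Slc19a1 averaged 6.18 ± 1.01 and 5.13 ± 1.53 CPM, a log2 fold change of 0.27 ± 0.19. All of these differences lie within the spread between libraries. Folr2 averaged 22.5 ± 4.33 and 17.3 ± 8.07 CPM (log2 fold change 0.38 ± 0.27), and Fpgs 3.80 ± 0.421 and 3.37 ± 0.481 CPM (0.17 ± 0.13). Folr1, at 0.425 ± 0.225 and 0.507 ± 0.343 CPM, had a log2 fold change of -0.25 ± 0.48. The 95% interval was narrowest for Fpgs and widest for Folr1. For Fpgs it ran from -0.12 to 0.47, and for Folr1 from -1.29 to 0.79.

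Some intake values lay nearer to 0 with cell content in the fit, and others farther from it. With the adipocyte level as a covariate, the log2 fold change of Ggh was 0.014 ± 0.11, that of Slc19a1 0.069 ± 0.17 and that of Slc46a1 -0.094 ± 0.13, while that of Folr1 was -0.46 ± 0.47. The Folr1 value was 0.0035 ± 0.25 with the luminal level as a covariate. With the lymphoid and macrophage levels together, Folr2 kept 0.32 ± 0.19 and Fpgs 0.23 ± 0.13. No gene of the 6 was called in any of these fits. Among the 7 libraries with a high lymphoid level the Folr1 value was 0.73 ± 0.56, the opposite sign to all 12, and it was 0.12 without library 2 at 1 mg/kg. Leaving out 1 library also moved other values by over 1.5 times. Folr2 went to 0.64 without library 3 and to 0.22 without library 6 at 1 mg/kg. Slc46a1 went to 0.54 without library 4 at 1 mg/kg and to 0.18 without library 6 there, and to 0.20 without library 4 at 5 mg/kg. Slc19a1 went to 0.44 without library 4 at 1 mg/kg. Ggh went to 0.19 without library 6 at 1 mg/kg and Fpgs to 0.12 without library 3 at 1 mg/kg. None of these values was called.

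**Figure D2:**
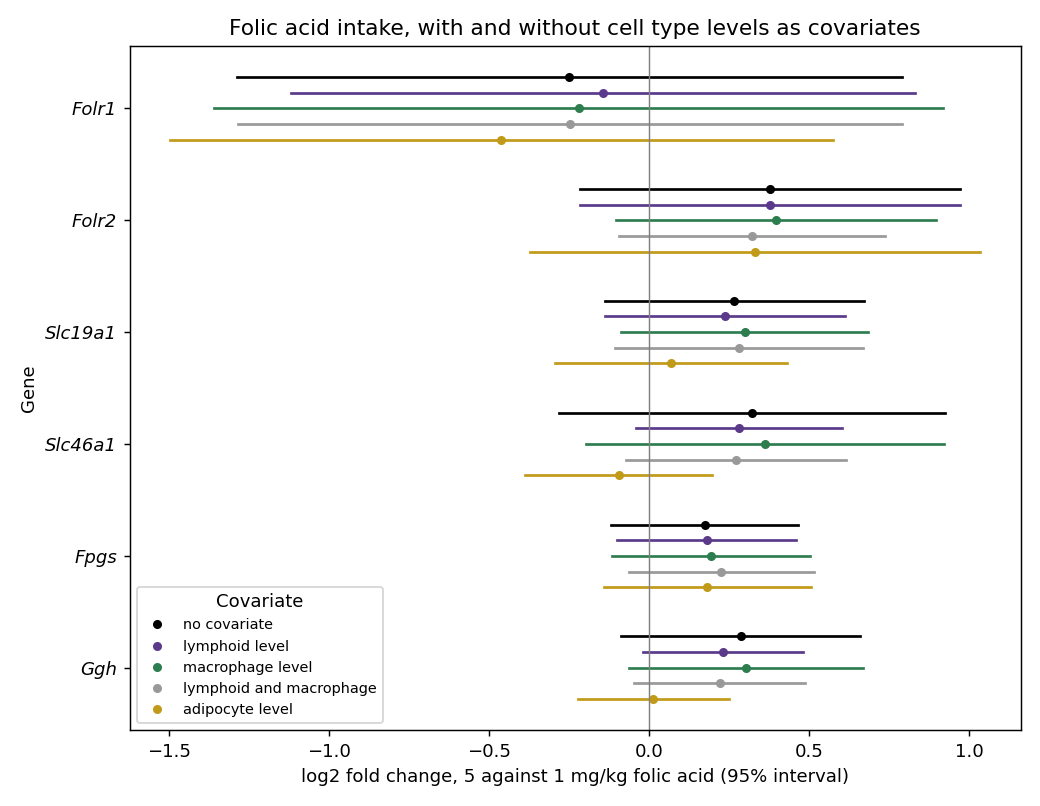
For each gene the plot shows the log2 fold change of 5 against 1 mg/kg (points) with its 95% interval (lines), without a covariate and with the levels named in the legend as covariates. Every interval covers 0. The points of Slc46a1 and Ggh sit at 0.32 and 0.29 without a covariate and at -0.094 and 0.014 with the adipocyte level.

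Slc46a1 and Ggh were lower in pads rich in lymphoid transcripts. In the 5 libraries with a low lymphoid level Slc46a1 was at 4.35 to 6.12 CPM, and in the 7 with a high level at 1.69 to 3.77 CPM, without overlap. Ggh was at 12.8 to 17.6 CPM in those 5 and at 7.61 to 12.4 CPM in the 7, again without overlap. The split into 5 and 7 libraries was made after the levels were seen, and how many of all tested genes separate them was not counted. The lack of overlap can thus not be read as particular to Slc46a1 and Ggh. Per unit of lymphoid level (log2 CPM, folic acid group in the fit), Slc46a1 fell by 0.15 ± 0.026 on the log2 scale (edgeR adjusted p = 0.00081) and Ggh fell by 0.079 ± 0.020 (adjusted p = 0.0088). These are 2 of 6 genes, and much of the transcriptome varied with the lymphoid level. In the same fit 40.4% of all tested genes were called in either direction and 17.5% were lower, so the share among the folate genes is near that of any genes. In bulk tissue, fewer cells of a type and less RNA per cell cannot be told apart.

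The other 4 were not called. Slc19a1 had a slope of -0.041 ± 0.030 (edgeR adjusted p = 0.284) and Folr1 one of -0.11 ± 0.078 (adjusted p = 0.257), which without library 2 at 5 mg/kg was -0.19 (adjusted p = 0.0367, beside 33.8% of all genes called). Over all fits without 1 library the Folr1 slope ran from -0.19 to -0.056 (edgeR adjusted p = 0.0367 to 0.605). Fpgs had a slope of 0.013 ± 0.023 (adjusted p = 0.662) and Folr2 one of -0.00028 ± 0.050 (adjusted p = 0.997). Slc19a1 was at 4.10 to 7.95 CPM in the 5 libraries of low and 3.98 to 6.11 CPM in the 7 of high lymphoid level, so its ranges overlapped. Folr2 was at 14.1 to 26.8 CPM in the 5 and, with a wider range, at 7.32 to 31.9 CPM in the 7. No slope differed detectably between intakes, with 0 of 6 interactions called in edgeR and 0 of 18647 genes (0%), of which 431 had an unadjusted p under 0.05. The Folr1 interaction was the nearest at 0.35 ± 0.13 (edgeR adjusted p = 1.00).

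**Figure D3:**
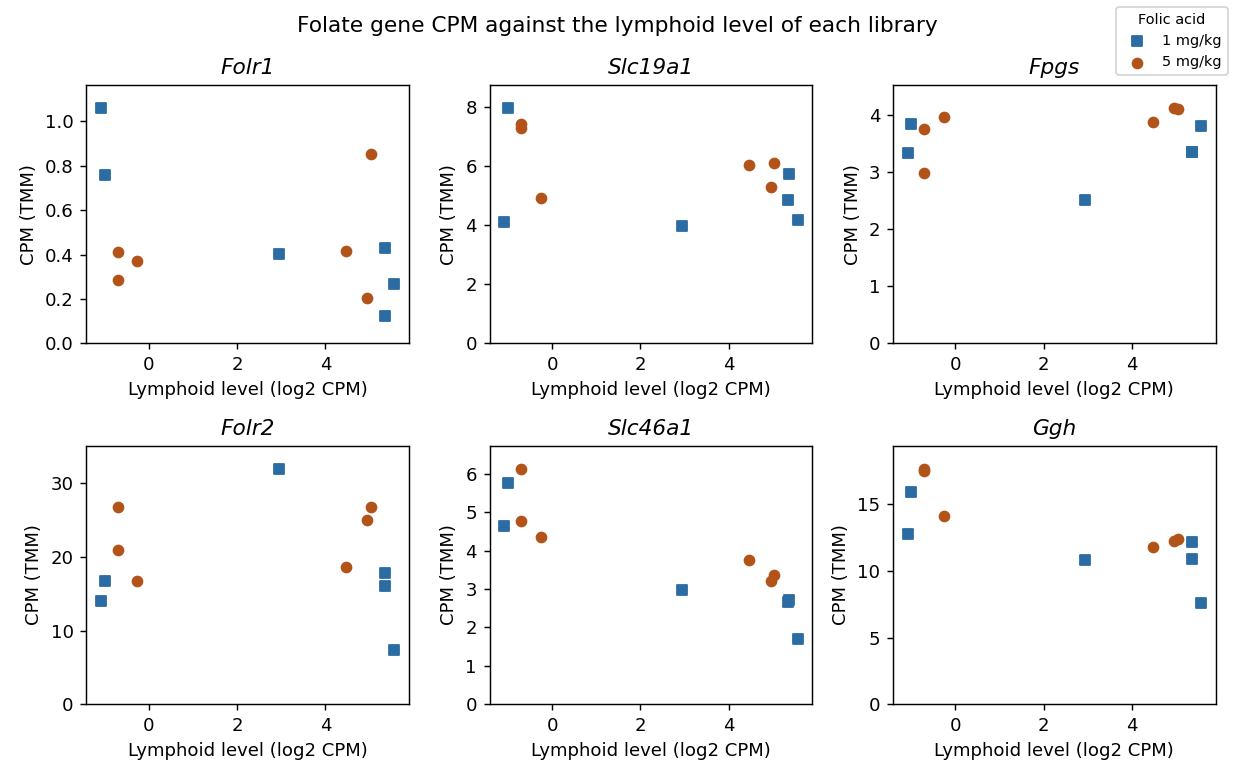
Each panel plots CPM of a folate gene (vertical axis, linear, from 0) against the lymphoid level of the library (horizontal axis, mean log2 CPM of B and T cell markers), with squares for 1 mg/kg and circles for 5 mg/kg. The libraries form a low cluster of 5 and a high cluster of 7. Of the genes shown, only Slc46a1 and Ggh have all points of the low cluster above all points of the high cluster. The clusters were told apart after the levels were seen, and the share of all genes that do so was not counted.

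Scaling and the choice of libraries set how firmly the lymphoid slopes stand. With library size alone in place of TMM, the slope of Slc46a1 was -0.072 (edgeR adjusted p = 0.163) and that of Ggh -0.0052 (adjusted p = 0.915), so 0 of 6 were called beside 31.8% of all genes. That scaling moved the median slope of all genes from -0.011 to 0.056 and the calls from 22.8% higher and 17.5% lower to 31.2% and 0.617%. Relative to that median, the slopes under the 2 scalings were -0.13 and -0.13 for Slc46a1 and -0.067 and -0.062 for Ggh. A change of scaling shifts the slopes of all genes by nearly the same amount. That likeness was therefore set in advance and does not bear on the lost calls. Without libraries 2 and 4 at 1 mg/kg, which lie farthest from the median lymphoid level, Slc46a1 had a slope of -0.10 (adjusted p = 0.0689) and Ggh one of -0.071 (adjusted p = 0.0982). That fit called 20.1% of all genes. Within the 7 libraries of high level alone the slopes were -0.18 ± 0.12 and -0.057 ± 0.098, and within the 5 of low level -0.74 ± 0.69 and -0.71 ± 0.54, none called. Neither slope was called within a cluster, in fits that called 18.7% of all genes in the 7 libraries and 0% in the 5. The fit within the 5 could thus not set these 2 genes apart from any others.

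With the macrophage level also in the fit, Slc46a1 kept a lymphoid slope of -0.15 ± 0.034 (edgeR adjusted p = 0.0048) and Ggh one of -0.085 ± 0.026 (adjusted p = 0.0246). These 2 of 6 genes stood beside 15.4% of all genes called lower and 37.8% called in either direction. The Ggh call was lost without library 1 at 5 mg/kg, library 4 at 1 mg/kg or library 6 at 1 mg/kg, where its adjusted p was 0.0508, 0.0534 and 0.254. In the same fit Folr2 had a lymphoid slope of -0.096 ± 0.041 (adjusted p = 0.0858), and without library 6 at 5 mg/kg it was -0.13 (adjusted p = 0.0062), beside 48.0% of all genes called. Leaving out each library in turn gave Folr2 slopes of -0.13 to -0.047 (edgeR adjusted p = 0.0062 to 0.481).

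Slc46a1 and Ggh were higher in pads rich in adipocyte transcripts. Per unit of adipocyte level, the mean log2 CPM of 12 genes such as Adipoq and Plin1, Slc46a1 rose by 0.93 ± 0.12 on the log2 scale (edgeR adjusted p = 0.00091). Ggh rose by 0.53 ± 0.098 (adjusted p = 0.0024). Slc19a1 had a slope of 0.40 ± 0.15 (adjusted p = 0.0512), which missed the threshold, and it was called without library 6 at 5 mg/kg, library 1 at 1 mg/kg or library 2 at 1 mg/kg (adjusted p = 0.0324, 0.0410 and 0.0271), fits that called 35.8%, 28.2% and 26.1% of all genes. Over all fits without 1 library the Slc19a1 slope ran from 0.15 to 0.45 (edgeR adjusted p = 0.0271 to 0.610). Slc46a1 and Ggh, 2 of 6 genes, stood beside 33.3% of all genes called in either direction and 13.5% called higher. With library size alone the fit called far fewer genes, 156 of 18647 (0.837%), and of the 6 it called Slc46a1 (0.90, adjusted p = 0.0491) but not Ggh. For Slc46a1 and Ggh the adipocyte level left a smaller SD than the lymphoid level did. The SD of log2 CPM of Slc46a1 within intakes was 0.50, and it was 0.25 after the lymphoid level and 0.16 after the adipocyte level. For Ggh the values were 0.31, 0.20 and 0.14. The median SD of all tested genes also fell, from 0.418 to 0.307 after the lymphoid level and 0.334 after the adipocyte level.

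Fat and lymphoid content moved against each other. The 5 libraries of low lymphoid level had adipocyte levels of 7.57 to 8.30, and the 7 of high level 6.45 to 7.44. With both levels in a fit, no slope of the 6 genes on either was called. The lymphoid slope of Slc46a1 was then -0.028 ± 0.045 and that of Ggh 0.0082 ± 0.037, while the adipocyte slopes were 0.78 ± 0.27 and 0.58 ± 0.22 (edgeR adjusted p = 0.504 and 0.531). In that fit 7.65% of all genes were called on the lymphoid level and 0 genes (0%) on the adipocyte level. Slc19a1 had an adipocyte slope of 1.01 ± 0.27 given the lymphoid level (edgeR adjusted p = 0.418). For Slc46a1 and Ggh, high fat and low lymphoid content cannot be told apart in these 12 libraries.

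The proliferation level, from 16 cell cycle genes, also ran with the lymphoid clusters, and Slc46a1 (-0.50 ± 0.11, edgeR adjusted p = 0.0041) and Ggh (-0.26 ± 0.081, adjusted p = 0.0207) fell with it. These 2 of 6 genes stood beside 19.8% of all genes called lower and 44.6% called in either direction. Its part in the lymphoid slopes was not tested.

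Folr2 had a positive macrophage slope that did not pass the test over all genes. On the macrophage level, from 15 genes such as Csf1r, C1qa and Lyz2 with no folate gene among them, its slope was 1.04 ± 0.41 (edgeR adjusted p = 0.865). No folate gene was called, nor was any of the 18647 genes (0%), of which 669 had an unadjusted p under 0.05. Given the lymphoid level, the slope was 1.62 ± 0.42 (edgeR adjusted p = 0.290), in a fit that called 16 genes (0.0858%) and 0 of the 6. Without library 6 at 5 mg/kg that slope was 1.87 (adjusted p = 0.0341), in a fit that called 0.36% of all genes. It ran from 1.07 to 1.87 over all fits without 1 library (edgeR adjusted p = 0.0341 to 0.9996). Without libraries 3 at 1 mg/kg and 2 at 5 mg/kg, the farthest from the median macrophage level, the Folr2 slope without the lymphoid level was 0.41 ± 0.57, and without library 3 at 1 mg/kg alone it was 0.49 ± 0.44.

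On the tissue-resident list, with Mrc1, Cd163, F13a1, Cbr2, Pf4, Timd4, Clec10a, Mgl2 and Stab1, the points lay closer. Mrc1 and Cd163 are also in the macrophage list. The lists were chosen with earlier results of these data known, so the closer points are a description and not an independent test. Library 3 at 1 mg/kg had the highest resident level, 5.33, and the highest Folr2, 31.9 CPM. Library 6 at 1 mg/kg had the lowest level, 3.95, and the lowest Folr2, 7.32 CPM. The slope was 1.23 ± 0.20 (edgeR adjusted p = 0.452, with 0 genes called, 0%), and leaving out each library in turn gave 1.00 to 1.36. The SD of log2 CPM of Folr2 went from 0.52 within intakes to 0.43 after the macrophage level and 0.24 after the resident level. With the lymphoid level added, a fit chosen after seeing the data, the slope was 1.32 ± 0.17 (adjusted p = 0.0099), and Folr2 was among 55 genes called (0.295%). Without libraries 3 and 6 at 1 mg/kg the slope without the lymphoid level was 0.67 ± 0.30 (adjusted p = 0.303).

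**Figure D4:**
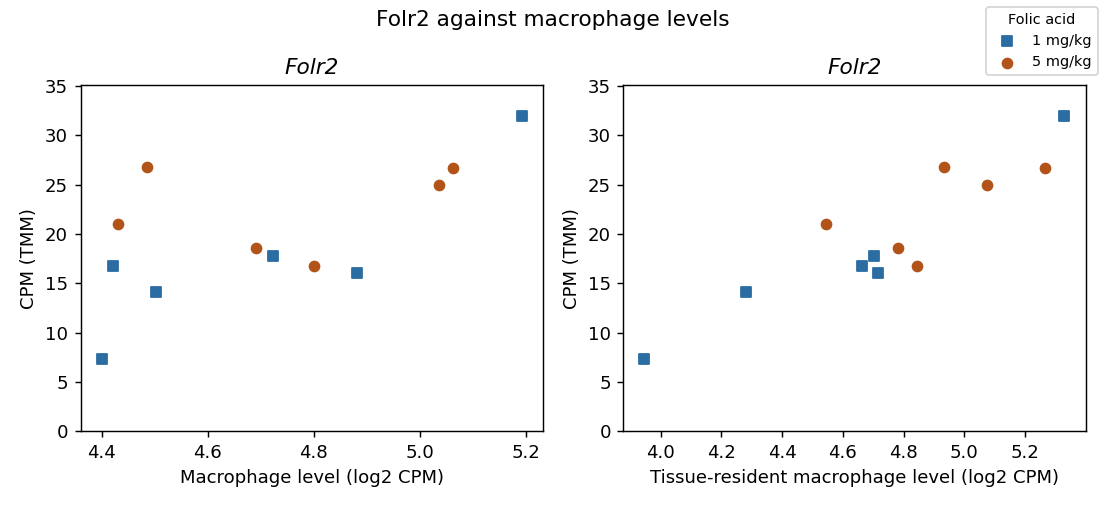
Both panels plot Folr2 in CPM (vertical axis, linear, from 0), on the left against the macrophage level and on the right against the tissue-resident macrophage level (horizontal axes, mean log2 CPM), with squares for 1 mg/kg and circles for 5 mg/kg. On the right the points run from library 6 at 1 mg/kg (3.95, 7.32 CPM) to library 3 at 1 mg/kg (5.33, 31.9 CPM), and on the left 2 circles at low macrophage level lie above that trend.

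The other 5 genes had macrophage slopes with wide errors. Slc46a1 had -0.88 ± 0.48, Slc19a1 -0.54 ± 0.33 and Ggh -0.43 ± 0.31, and given the lymphoid level these were 0.11 ± 0.36, -0.42 ± 0.41 and 0.11 ± 0.28. Fpgs had -0.17 ± 0.27 and Folr1 -0.19 ± 0.95. Under library size alone, which moved the median macrophage slope of all genes from -0.041 to 0.58, Folr2 (0.57, edgeR adjusted p = 0.0333) and Fpgs (0.72, adjusted p = 0.0254) were called, 2 of 6 genes beside 48.2% of all. In that fit all of Folr1, Slc19a1, Fpgs and Ggh turned positive. Relative to that median the Folr2 slope was then -0.0092. No macrophage slope differed detectably between intakes, with 0 of 6 called in edgeR and 0 of 18647 genes (0%), of which 2589 had an unadjusted p under 0.05. The Fpgs interaction was 1.09 ± 0.44 (edgeR adjusted p = 0.310).

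Folr1 had a positive slope on epithelial content that missed the threshold. Its slope on the luminal level, the mean log2 CPM of 14 genes such as Krt8, Krt18 and Epcam, was 0.86 ± 0.26 (edgeR adjusted p = 0.0960), and 0 of 6 genes were called beside 5.04% of all. The SD of its log2 CPM went from 0.83 to 0.58. Libraries 2 and 4 at 1 mg/kg had the highest luminal levels, 5.24 and 4.98, and Folr1 at 1.06 and 0.759 CPM, and library 5 at 1 mg/kg the lowest of both, 2.56 and 0.125 CPM. Library 2 at 5 mg/kg lay apart, at 0.853 CPM with a luminal level of 4.01. Without that library Folr1 was called (0.88, adjusted p = 0.0314), as were 4.50% of all genes. No other fit without 1 library called it, and over all of them the slope ran from 0.68 to 0.95 (edgeR adjusted p = 0.0314 to 0.430). Folr1 was also called under library size alone (0.86, adjusted p = 0.0371), as were 11.8% of all genes. That scaling moved the median luminal slope of all genes from -0.013 to 0.20. Relative to that median, the Folr1 slope went from 0.87 to 0.66.

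**Figure D5:**
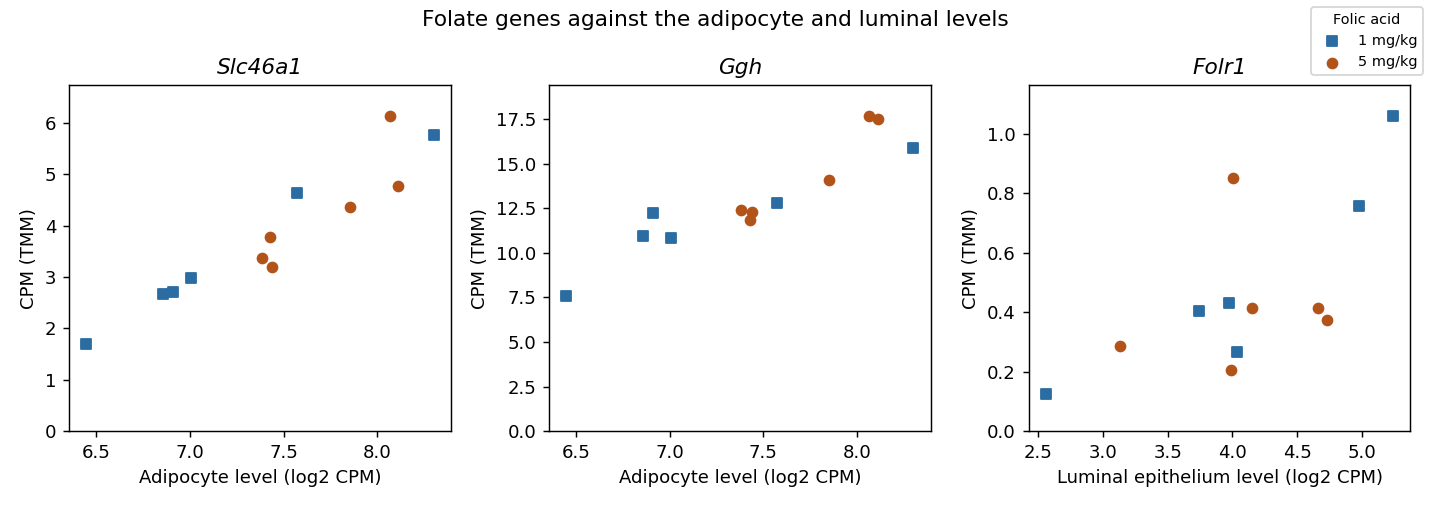
CPM (vertical axes, linear, from 0) of Slc46a1 and Ggh against the adipocyte level and of Folr1 against the luminal epithelium level (horizontal axes, mean log2 CPM), with squares for 1 mg/kg and circles for 5 mg/kg. Slc46a1 and Ggh climb from library 6 at 1 mg/kg (1.69 and 7.61 CPM at 6.45) to the libraries of adipocyte level above 8, and a Folr1 circle at 0.853 CPM stands above its neighbours.

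Muscle content gave a further direction for Fpgs and Folr2. Fpgs had a slope of -0.20 ± 0.070 on the skeletal muscle level (edgeR adjusted p = 0.0646) and Folr2 one of 0.39 ± 0.15 (adjusted p = 0.0813), with 0 of 6 called beside 17.9% of all. The lowest Fpgs values, 2.51 CPM in library 3 at 1 mg/kg and 2.99 CPM in library 5 at 5 mg/kg, came with the highest muscle levels, 11.9 and 11.4.

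Ratios within a library compared genes of opposed or parallel roles. They were chosen after the values were seen, and the 3 tests were adjusted together. Ggh stood 7.46 ± 2.26 times as high per kilobase as Fpgs at 5 mg/kg and 6.82 ± 1.62 times at 1 mg/kg (exact two-sided permutation test over 924 assignments, p = 0.621, adjusted p = 0.684). The ratio of hydrolase to synthase was 6.88 to 11.3 in the 5 libraries of low lymphoid level and 3.85 to 8.33 in the 7 of high level, with overlap. Slc46a1 over Slc19a1 was 1.04 ± 0.206 and 1.01 ± 0.397 (exact permutation p = 0.684, adjusted p = 0.684), and Folr2 over Folr1 95.6 ± 51.8 and 79.5 ± 72.9 (exact permutation p = 0.355, adjusted p = 0.684). No ratio separated the intakes.

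The genes with the most similar pattern were found by Pearson's r of log2 CPM over the 12 libraries, among genes with a mean of at least 1 CPM. These values share the libraries and their cell content and are given without a test. Slc46a1 was most like Gna11 (0.978), Adipoq (0.978), the adipocyte hormone adiponectin, and Wdr34 (0.976). Ggh was most like Tmem134 (0.966), Ckb (0.965) and Txndc15 (0.964). Folr2 was most like Hexa (0.959), a lysosomal hexosaminidase subunit, Cbr2 (0.933) and Wfdc17 (0.932), of which Cbr2 is also in the tissue-resident list. The nearest patterns of Folr1 were Ets2 (0.902), Scnn1b (0.900), a sodium channel subunit of epithelia, and Lif (0.881). Slc19a1 was nearest to Cers2 (0.960), Mtmr9 (0.956) and Fam69b (0.943), and Fpgs to Pias3 (0.931), Trp53i13 (0.895) and Armc5 (0.891). After intake, lymphoid and macrophage level were taken out, Tmem134 (0.962) was the sole gene to stay among the 3 nearest of any of the 6, for Ggh.

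The rest of the folate pathway, 37 genes of transport and of cytosolic and mitochondrial folate enzymes, showed no intake difference either. Of the 35 tested (all but Ftcd and Dmgdh), 0 were called in edgeR, 1 had an unadjusted p under 0.05, and the median log2 fold change was 0.015. That gene was Sardh, sarcosine dehydrogenase of mitochondria, which averaged 8.79 ± 1.20 CPM against 6.24 ± 2.42 CPM at the lower intake (0.49 ± 0.22, adjusted p = 0.943). Aldh1l1, the cytosolic formyltetrahydrofolate dehydrogenase, had 0.57 ± 0.32, and Slc25a32, the mitochondrial folate carrier, 0.29 ± 0.16.

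With the lymphoid level, 8 of the 35 were higher and 8 lower, 45.7% in all beside 40.4% of all genes. In the mitochondrial list 9 of 10 were called, 3 higher and 6 lower, in the cytosolic list 3 of 12 and in the transport list 4 of 13. Izumo1r, a relative of the folate receptors known on regulatory T cells, rose by 0.96 ± 0.056 per unit (edgeR adjusted p = 3.29e-08). Mthfd1l and Mthfd2, mitochondrial enzymes high in dividing cells, rose by 0.40 ± 0.037 and 0.35 ± 0.037. Aldh1l1, Sardh and Mthfd2l fell by 0.17 ± 0.026, 0.094 ± 0.026 and 0.074 ± 0.016. Per unit of adipocyte level the same 3 genes rose by 1.09 ± 0.10, 0.65 ± 0.11 and 0.43 ± 0.096. On that level 7 of the 35 were called higher and 7 lower, 40.0% beside 33.3% of all genes. Which of the 2 levels these genes followed was not tested. Their lymphoid slopes were not examined with library size alone, under which 0.617% of all genes were called lower. On the macrophage level 0 of the 35 were called, with 0 at an unadjusted p under 0.05.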

How the data were processed

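The authors deposited raw counts of reads for each gene. The submitters' processing notes name STAR, HTSeq 0.6.1 and mm10, and no annotation, STAR version or strand setting is given in the labels. Reads tallied to no gene (16.7% to 35.7%, with 8.30% to 10.5% not unique) stayed out of all sums and tests. Within a group no pair of 30 was a copy (lowest chi-square 41.7 per degree of freedom).

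All fits ran on the whole table in edgeR 4.0.16 (R 4.3.3): filterByExpr by group, TMM factors (0.5999 to 1.33), quasi-likelihood F-tests (robust), and Benjamini-Hochberg adjustment over 18647 genes with 0.05 as the threshold. A cell type level is the mean log2 CPM (prior count 2) of its tested markers, entered as a number beside the folic acid group. Log2 fold changes are 5 minus 1 mg/kg. Errors of fitted values are SE, others SD. limma 3.58.1 and DESeq2 1.42.0 were alternatives. Fits with library size alone, other lists, no filter, and libraries left out are in the closing section.

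The 6 genes and the lists were chosen with earlier results of these data known. Named genes are all 6, the 3 most similar genes each, and folate pathway genes with the smallest p. The latter are 3 in the intake fit and 3 per direction in the lymphoid fit. Adipocyte slopes are given only for the 3 that fell with the lymphoid level. Pathway genes picked in the same way from the macrophage and adipocyte fits are not named. The fits were also run on simulated counts with planted changes but without cell content shared over most genes. That run does not show how the fits behave on these data.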

Additional observations from a re-analysis of the deposited data

Results flagged for a closer look

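Of 12 groups of 6 values, 3 held a library whose gap to its nearest neighbour was large for the range of the group, by Dixon's 95% criterion, which chance meets in about 1 in 20 groups. Folr1 stood at 0.853 CPM in library 2 at 5 mg/kg, above the other 5 libraries of that intake. Fpgs stood at 2.51 CPM in library 3 at 1 mg/kg, the lowest of that intake. Fpgs was also lowest in library 5 at 5 mg/kg, at 2.99 CPM. The 2 libraries with low Fpgs had the highest skeletal muscle levels, 11.9 and 11.4, and TMM factors of 0.763 and 0.5999, and the part of either in the low values was not tested.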

How the results depend on the processing

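No paired analysis was possible because replicates were numbered in record order, which pairs no samples. Folic acid intake called 0 of the 6 genes under each alternative run. Folr1 changed sign with the luminal level as covariate (0.0035), within the 7 libraries of high lymphoid level (0.73) and among fits without 1 library (-0.58 to 0.12), and Slc46a1 with the adipocyte level (-0.094). Where a direction or call changed, the cause was not tested.

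For the lymphoid level, 2 genes were called, beside 40.4% of all genes. The count was 0 with library size alone (31.8% of all genes), without the 2 farthest libraries (20.1%) and with the adipocyte level as a further covariate (7.65%). It was also 0 within the 7 libraries of high level (18.7%) and the 5 of low level (0%), where fewer libraries entered. It was 1 (Slc46a1) with library size alone without the mitochondrial ribosomal RNA (34.4%). Leaving out each library gave 2 to 3, beside 32.7% to 45.2% of all genes. Folr2, near 0, turned positive with library size alone (0.063, or 0.032 without mitochondrial ribosomal RNA), without the filter (0.0031), with B cell genes alone (0.0040), with the adipocyte level (0.064), and over fits without 1 library ranged from -0.014 to 0.032. Slc19a1 turned positive with library size alone (0.032), with the adipocyte level (0.12) and within the 7 libraries (0.089). Ggh did so with the adipocyte level (0.0082), and Folr1 without the 2 farthest libraries (0.062). Fpgs ranged from -2.15e-05 to 0.027 without 1 library.

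For the macrophage level the count rose from 0 to 2 with library size alone (Folr2, Fpgs), where 48.2% of all genes were called, and with the lymph node macrophage list (Slc46a1 and Ggh, both lower), where 26.1% were. Library size alone gave Folr1 0.50, Slc19a1 0.27, Fpgs 0.72 and Ggh 0.24, and without mitochondrial ribosomal RNA Folr1 0.21 and Fpgs 0.46. Folr1 was 0.18 without the filter and 0.043 with the tissue-resident list, where Ggh was 0.045. Fpgs was 0.0083 with the lymph node list and 0.12 without the 2 farthest libraries. Without 1 library, Folr1 ran from -1.06 to 0.29 and Fpgs from -0.28 to 0.27.

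With both levels in the fit, leaving out each library gave 1 to 3 genes called on the lymphoid level and 0 to 1 on the macrophage level (Folr2 without library 6 at 5 mg/kg, adjusted p = 0.0341 in edgeR). Those fits called 24.2% to 48.0% of all genes on the lymphoid level and 0% to 0.36% on the macrophage level. The lymphoid slope of Slc19a1 then ran from -0.041 to 0.031, and the macrophage slopes of Fpgs from -0.40 to 0.26, of Slc46a1 from -0.51 to 0.48 and of Ggh from -0.36 to 0.38. The tissue-resident level called 0 genes of the 6, and 1 (Folr2) with the lymphoid level added.

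The luminal level called 0, but 1 (Folr1) with library size alone (11.8% of all genes) and 0 to 1 without 1 library (1.43% to 11.8%). In those fits without 1 library Slc19a1 ran from -0.11 to 0.12. The adipocyte level called 2, but 0 with the lymphoid level added and 1 (Slc46a1) with library size alone, with or without mitochondrial ribosomal RNA (0.837% and 2.11% of all genes, against 33.3%). Folr2 was then -0.14 and, without that RNA, -0.24, and Fpgs 0.30, or 0.22 with the lymphoid level. Without 1 library, Folr2 ran from -0.23 to 0.28 and Fpgs from -0.25 to 0.056. The fits within 7 or 5 libraries, the library-size fits without mitochondrial ribosomal RNA and the alternatives for the adipocyte, luminal and resident levels were chosen after seeing the data. Depth limits Folr1 most, at 9 to 63 reads per library.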
